A study of Homo sapiens with 12 samples.

Results

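The BCL2 family decides whether a cell's mitochondria release the proteins that start apoptosis, and 10 of its genes were followed here in 2 liver cancer lines before and after resistance to lenvatinib. The 10 genes were taken by name, wherever either deposited table listed them: BIK, BMF, BBC3, HRK, BAD, PMAIP1, BOK, BAK1, BCL2L1 and MCL1. All 10 were found, among 12365 gene symbols held by at least 1 of the 2 tables. Of these, 5 are listed for Hep3B, 8 for Huh7 and 3 for both lines (BOK, BMF and BAK1). All 5 and all 8 passed the filter on low values, PMAIP1 through its parental libraries alone. The genes are spread over the genome, on chromosomes 22 (BIK), 15 (BMF), 19 (BBC3), 12 (HRK), 11 (BAD), 18 (PMAIP1), 2 (BOK), 6 (BAK1), 20 (BCL2L1) and 1 (MCL1).

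Hep3B and Huh7 are established human hepatocellular carcinoma lines, and lenvatinib is a kinase inhibitor that blocks the VEGF and FGF receptors. RNA was sequenced from 12 libraries, with 3 of parental cells and 3 of lenvatinib-resistant cells for each line. The cells were grown in DMEM with serum. The labels name DMSO or lenvatinib as treatment for every library alike, so cells harvested with and without the drug cannot be distinguished here. Nothing in the labels says how the resistant cells were derived, whether they are clones or pools, or whether replicates were separate cultures, so p-values measure only the spread between these libraries, which may be technical. These are bulk libraries, in which fewer cells of a kind and less RNA per cell cannot be told apart.

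As background, the family has 3 kinds of member. Guardians such as BCL2L1 (which encodes BCL-xL) and MCL1 bind and restrain the others. Effectors, BAX and BAK1, assemble into pores in the outer mitochondrial membrane, and cytochrome c then escapes and triggers caspases. The BH3-only proteins, here BIK, BMF, BBC3 (PUMA), HRK (harakiri), BAD and PMAIP1 (NOXA), sense stress and act by inserting their BH3 helix into a groove of guardians or effectors. BOK resembles the effectors in sequence. In mice, hepatocytes that lack BCL-xL or MCL1 die by apoptosis.

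What the 10 proteins share is the BH3 helix, so the codons that encode its core are shown for each. They were read from the GENCODE 29 transcripts (GRCh38): for members in the Hep3B table the transcript behind that entry, otherwise the APPRIS principal transcript with the longest coding sequence. The capitals mark the codon of a leucine that is shared by all 10 and the codons of the pair that follows after 3 further residues, a small residue and then an aspartate. The search pattern required these residues and a hydrophobic one at the second place after the aspartate. It matched once in each of the 10 coding sequences. The same pattern occurs in 12.8% of 19692 longest coding sequences of all coding genes, so a match alone does not mark a family member.
BIK: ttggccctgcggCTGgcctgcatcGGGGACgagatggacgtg
BMF: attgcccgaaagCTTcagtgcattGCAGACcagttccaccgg
BBC3: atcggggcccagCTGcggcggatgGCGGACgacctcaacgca
HRK: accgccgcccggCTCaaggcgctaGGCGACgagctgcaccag
BAD: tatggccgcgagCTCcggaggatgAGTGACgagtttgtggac
PMAIP1: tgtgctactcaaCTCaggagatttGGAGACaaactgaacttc
BOK: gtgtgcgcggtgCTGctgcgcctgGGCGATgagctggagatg
BAK1: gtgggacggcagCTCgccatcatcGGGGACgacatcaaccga
BCL2L1: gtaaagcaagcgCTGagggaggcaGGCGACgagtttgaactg
MCL1: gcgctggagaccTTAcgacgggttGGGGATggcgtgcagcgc
The leucine is written with 4 different codons over the 10 genes and the aspartate mostly with GAC, BOK and MCL1 being the 2 with GAT.

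Levels are scaled reads, that is, whole reads recovered from the deposited values and divided by the size factor of the library. Each Hep3B library held 6184929 to 7475184 recovered reads in its listed genes and each Huh7 library 11480608 to 14174202 in Huh7. Changes are log2 of (scaled reads + 1), resistant minus parental, with the standard error from limma, and a gene was called at a Benjamini-Hochberg adjusted p under 0.05 over all entries of its table. The Huh7 table lists only genes that the authors' own test had passed (largest deposited adjusted p 0.0499), so a call there adds little, and genes not listed were not analysed here. Liver identity genes were expressed in both lines. In Hep3B all 5 listed ones were lower in resistant cells, with a summed level of 362820 to 370501 scaled reads in parental and 172421 to 176942 in resistant libraries, while in Huh7 4 of 7 were higher and 3 lower. Of 4 fibroblast markers in Hep3B, 2 were higher and 2 lower (median change -0.03). Their summed level was 616 to 693 in parental and 2224 to 2501 in resistant libraries and was carried by COL1A1 (24.9 ± 7.23 to 1937 ± 177), while LUM (-2.38 ± 0.14) and PDGFRB (-2.10 ± 0.17) fell. In Huh7 all 3 listed ones were lower, with a summed level of 4161 to 4350 in parental and 884 to 888 in resistant libraries. Of 2 leukocyte markers listed in each line, 1 was higher (LAPTM5 in Hep3B, PTPRC in Huh7) and LYZ, which carried the sums, was lower, the 2 summing to 438 to 520 in parental and 108 to 121 in resistant Hep3B and to 6456 to 6674 and 5280 to 5460 in Huh7. Of 2 endothelial markers in Hep3B, ESAM was higher and PECAM1 not called, with sums of 28.5 to 46.6 and 81.4 to 82.6. Of 3 in Huh7, VWF (-1.62 ± 0.43) and ESAM (-1.97 ± 0.46) were lower and PECAM1 (128 ± 18.9 to 240 ± 8.12) was higher and carried the sums of 133 to 171 and 236 to 255. None of these markers was at 0 in every library, and their part in the results below was not tested.

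In resistant Hep3B cells all 5 listed members, 3 BH3-only genes and the effector-type genes BOK and BAK1, were higher than in parental cells. All 5 were called higher and in all 5 the groups did not overlap, where 49.5% of the 8717 transcripts tested were called, 27.6% higher and 21.9% lower. That balance, 2405 higher and 1912 lower, turned with median centring (2062 and 2267) and in 4 other alternatives, while the change of all 5 members kept its positive sign in each. Separate groups were found for 56.3% of transcripts, 31.6% with resistant cells higher and 24.7% with resistant cells lower. The median change of the 5 was 1.42, against 0.07 over all transcripts. The members were chosen with earlier results of these data known, so this contrast is no test. The largest change of the 5 was that of BIK, at 5.5-fold, and the smallest that of BAK1. Each Hep3B entry stands for 1 RefSeq transcript, which is the only curated one for BIK, BOK and BAK1, but 1 of 24 for BMF and 1 of 4 for BBC3.

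BIK encodes a BH3-only protein that sits mainly in the membrane of the endoplasmic reticulum and is held by BCL-xL and BCL2. Its level was 19.3, 18.6 and 19.8 scaled reads in the parental libraries and 115, 87.6 and 134 in the resistant ones. The parental libraries lie within about 1 scaled read of each other, and the lowest resistant library is far above them. BIK rose by 2.46 ± 0.22 (limma adjusted p = 1.05e-08), a change that 185 of 8717 transcripts matched or exceeded upward, itself included.

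BMF, whose protein is held by a dynein light chain in healthy cells and is freed on loss of attachment, was low in this table. It had 10.1, 7.7 and 6.9 scaled reads in the parental and 23.5, 26.5 and 20.9 in the resistant libraries. Every resistant library was above every parental one, on 25 reads in all against 71. BMF rose by 1.42 ± 0.35 (limma adjusted p = 0.00217).

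BBC3 encodes PUMA, a p53-induced BH3-only protein that binds all the main guardians. Its level was 4.6, 7.7 and 7.9 in the parental and 18.8, 21.4 and 12.6 in the resistant libraries. The groups did not overlap, but the third resistant library lies closer to the parental ones than to its own group's highest. BBC3 rose by 1.26 ± 0.41 (limma adjusted p = 0.0148), on 20 parental and 53 resistant reads. BBC3 did not pass when parental replicate 1 was left out (limma adjusted p = 0.0518), nor when resistant replicate 1 (0.0582) or 2 (0.074) was. It also missed the threshold with quantile normalization (0.0563) and with DESeq2 (0.0506).

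**Figure D1:**
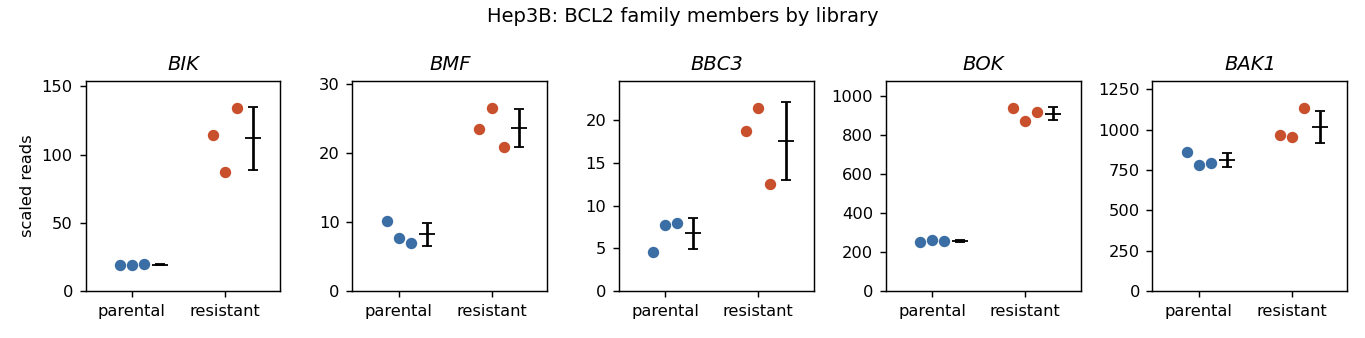
Scaled reads of the 5 members listed for Hep3B, one panel per gene, with each point 1 library and the black bar the mean ± SD of 3. In every panel the resistant libraries lie above the parental ones, with BIK and BOK the farthest apart.

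BOK encodes a protein with the effector fold that, unlike BAX and BAK, is little restrained by guardians and is kept low through degradation by the proteasome. Its level was 253, 262 and 258 scaled reads in the parental libraries and 938, 876 and 920 in the resistant ones. Both groups were tight, and the gap between them far exceeds the range of either. BOK rose by 1.82 ± 0.08 (limma adjusted p = 1.25e-13), from 258 ± 4.45 to 911 ± 32.2 (mean ± SD, n = 3). An antisense gene, BOK-AS1, shares 7.41% of the exon bases of BOK, and without a stated strand setting its reads cannot be told apart.

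BAK1, which encodes the pore-forming effector BAK, was the most abundant of the 5 and moved least. It had 863, 781 and 793 scaled reads in the parental and 968, 952 and 1132 in the resistant libraries. The third resistant library is the highest, and the nearest libraries of the groups differ by less than the range within the resistant group. BAK1 rose by 0.32 ± 0.07 (limma adjusted p = 0.00124).

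In resistant Huh7 cells both listed guardian genes were lower, BCL2L1 to 4656 ± 139 from 7111 ± 368 scaled reads and MCL1 to 4881 ± 126 from 6304 ± 176. Of the 8 listed members, 2 were higher (HRK and BOK) and 6 lower (BMF, BAD, PMAIP1, BAK1, BCL2L1 and MCL1). Of the 7531 genes tested in this selection, 100% were called, 48.0% higher and 52.0% lower, a balance of 3614 and 3917 that turned to 3614 and 2814 with median centring. The groups did not overlap for 98.6% of them, 47.4% with resistant cells higher and 51.2% with resistant cells lower, so calls and separate groups for all 8 are what the selection gives. The median change of the 7 other than PMAIP1, which passed the filter through the group where it is high, was -0.38, against -0.19 over all genes listed. Relative to that median the falls of MCL1, BMF and BAK1 were smaller but still called, as given with each. As in Hep3B, the members were chosen with earlier results known, so their median is no test.

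BCL2L1 had 7430, 7194 and 6709 scaled reads in the parental and 4797, 4519 and 4654 in the resistant libraries. The resistant libraries lie close together, and the lowest parental one is well above them. BCL2L1 fell by 0.61 ± 0.05 (limma adjusted p = 2.51e-09), and its change relative to the median of all listed genes was -0.42 (3.12e-07). The gene gives rise to a long protective and a short death-promoting splice form, which a value per gene does not separate, and the antisense gene ABALON shares 43% of its exon bases.

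MCL1, a guardian with a very short-lived protein and mRNA, had 6104, 6436 and 6371 scaled reads in the parental and 5008, 4881 and 4756 in the resistant libraries. Neither group's range reaches the other. MCL1 fell by 0.37 ± 0.05 (limma adjusted p = 9.94e-07), and its change relative to the median of all listed genes was -0.18 (0.00178).

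**Figure D2:**
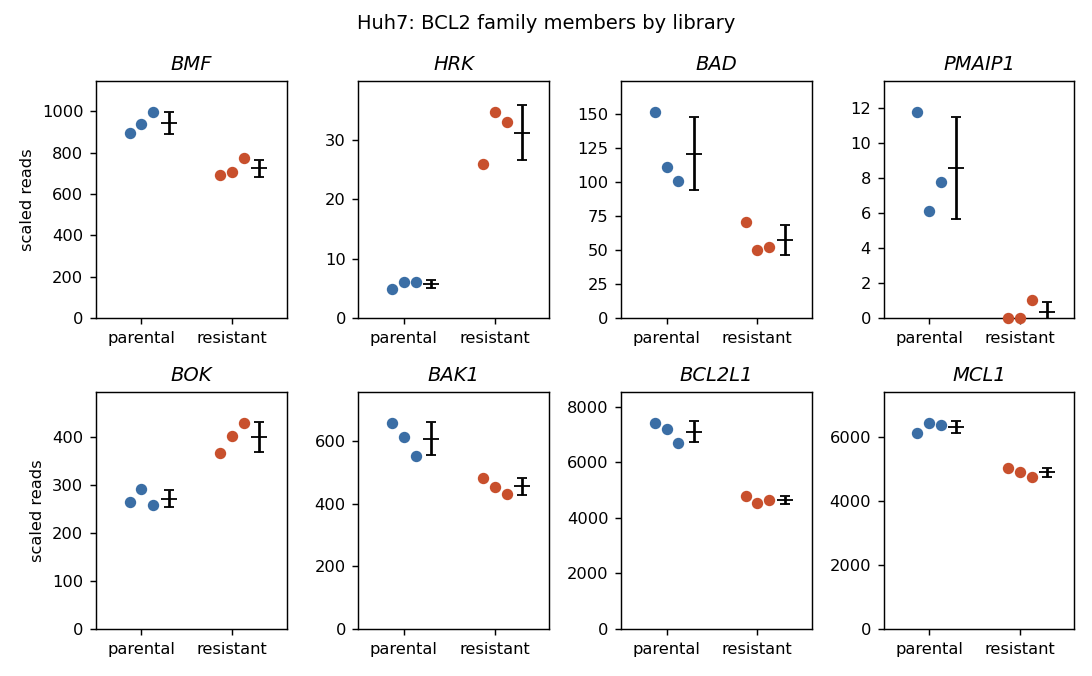
Scaled reads of the 8 members listed for Huh7, one panel per gene, with each point 1 library and the black bar the mean ± SD of 3. HRK and BOK are higher in resistant cells and the other 6 lower, with PMAIP1 at 0 in 2 of 3 resistant libraries.

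HRK encodes a BH3-only protein best known from dying neurons, where it binds BCL-xL. It had 4.9, 6.11 and 6.04 scaled reads in the parental and 25.9, 34.6 and 33 in the resistant libraries. All resistant libraries were at least 4 times the highest parental one. HRK rose by 2.26 ± 0.32 (limma adjusted p = 3.17e-06), on 18 and 90 reads, a change matched or exceeded upward by 262 of 7531 genes.

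PMAIP1 encodes NOXA, a small BH3-only protein that binds MCL1 and promotes its degradation. Its level was 11.8, 6.11 and 7.76 scaled reads in the parental libraries and 0, 0 and 1.03 in the resistant ones. In all, 27 reads were found in parental and 1 in resistant cells, a ratio of 24.6 with an exact 95% counting interval of 4.06 to 1009 that covers counting error only. Since the gene passed the filter through its parental libraries alone, no test of it is given, and its fitted change depends on the pseudocount and is no bound. The transcript of this partner of MCL1 was scarce in parental cells already.

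BAD encodes a BH3-only protein that survival kinases such as AKT phosphorylate, after which 14-3-3 proteins hold it in the cytosol. It had 152, 111 and 101 scaled reads in the parental and 70.6, 50.4 and 52.5 in the resistant libraries. Replicate 1 is the highest library of each group. BAD fell by 1.05 ± 0.19 (limma adjusted p = 4.88e-05). GPR137, a neighbour on the opposite strand, shares 23.7% of the exon bases of BAD.

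BMF, here counted per gene, had 894, 940 and 997 scaled reads in the parental and 693, 708 and 773 in the resistant libraries. The gap between the groups is wider than the range of either. BMF fell by 0.38 ± 0.07 (limma adjusted p = 7.52e-05), and its change relative to the median of all listed genes was -0.20 (0.0178). Its antisense gene BMF-AS1 shares 8.46% of its exon bases.

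The effector gene BAK1 had 659, 614 and 552 scaled reads in the parental and 484, 453 and 431 in the resistant libraries. The lowest parental library lies above the highest resistant one by less than the range within the parental group. BAK1 fell by 0.41 ± 0.09 (limma adjusted p = 0.000183), and its change relative to the median of all listed genes was -0.23 (0.0172). BOK had 264, 291 and 259 scaled reads in the parental and 366, 402 and 430 in the resistant libraries, and all resistant libraries were higher. BOK rose by 0.55 ± 0.10 (limma adjusted p = 3.43e-05), and by 0.74 relative to the median.

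Compared between the lines, BOK was the only one of the 3 members in both tables that was higher in resistant cells of each. A rise in both lines was called for 12.1% of the 3885 shared symbols, and opposite calls, as for BMF and BAK1, for 29.1%. The difference of the changes, Huh7 minus Hep3B, was -1.26 ± 0.12 for BOK (adjusted p = 2.87e-11 over all shared symbols, from the moderated standard errors of both limma fits). For BMF it was -1.80 ± 0.36 (adjusted p = 0.000143 by the same limma-based test) and for BAK1 -0.74 ± 0.11 (4.77e-07). Such a difference was called for 67.1% of shared symbols, and with the Huh7 change the lower one for 36.7%. Every shared symbol had already passed the authors' own test in Huh7. These p-values and shares therefore hold only within a selection made on the Huh7 change. All 3 differences kept their sign and their call in each alternative run for them. Those were other pseudocounts, median centring, the replicate block and single libraries left out, not quantile normalization, edgeR, DESeq2 or the authors' values. For BMF the Hep3B value is that of 1 transcript and the Huh7 value that of the whole gene, so the lines were not measured alike.

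**Figure D3:**
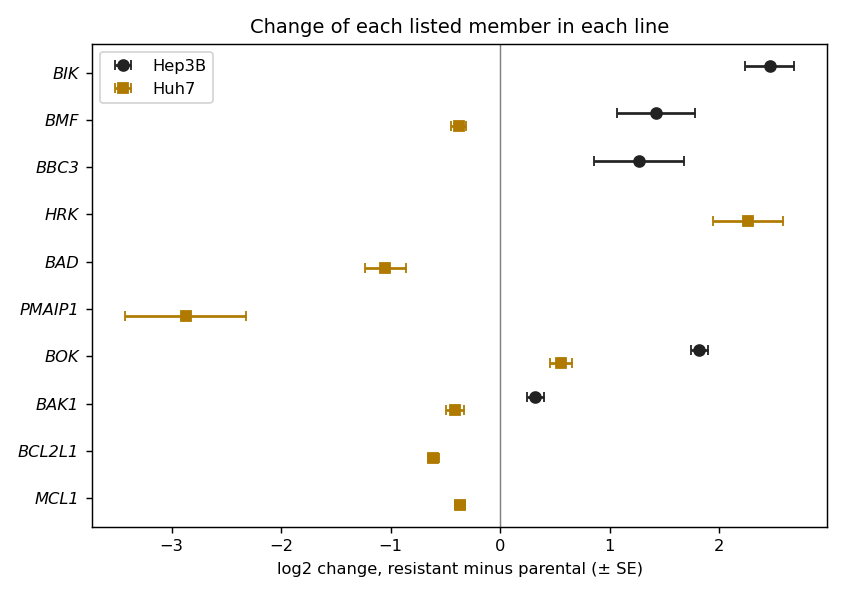
Log2 change of each listed member, resistant minus parental, ± SE, with circles for Hep3B and squares for Huh7; a missing symbol means that the line's table does not list the gene. All 5 Hep3B values are above 0, and in Huh7 HRK and BOK are above 0 and the other 6 below, that of PMAIP1 being a fitted value that depends on the pseudocount.

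Levels of different members were compared per length, as scaled reads per kb of exon, within each line only. In parental Huh7 the 2 guardians led, BCL2L1 with 2146 ± 111 and MCL1 with 1442 ± 40.2 scaled reads per kb (mean ± SD, n = 3). BAK1 followed with 275 ± 24.3, BMF with 173 ± 9.46, BOK with 100 ± 6.38 and BAD with 71 ± 15.8. PMAIP1 with 3.82 ± 1.30 and HRK with 0.829 ± 0.0992 came last. The guardians also led in resistant Huh7, at 1405 ± 42 and 1117 ± 28.8 per kb, with BAK1 at 206 ± 12.1. There BOK (147 ± 11.7) and BMF (133 ± 7.75) did not differ beyond their spread, while HRK at 4.55 ± 0.673 remained low and PMAIP1 was at 0.154 ± 0.266. The large relative change of HRK is a change among transcripts far scarcer than those of the guardians.

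In Hep3B the order per kb in parental cells was BAK1 with 380 ± 20.6, BOK with 97 ± 1.67, BIK with 20.2 ± 0.617, BBC3 with 3.66 ± 1.01 and BMF with 1.81 ± 0.368. In resistant cells BAK1 stood at 476 ± 46.5, BOK at 343 ± 12.1 and BIK at 118 ± 24.4, followed by BBC3 at 9.56 ± 2.47 and BMF at 5.20 ± 0.612. The order was the same in both groups. Levels of BBC3 and BMF may be understated, since each entry is 1 of several transcripts.

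**Figure D4:**
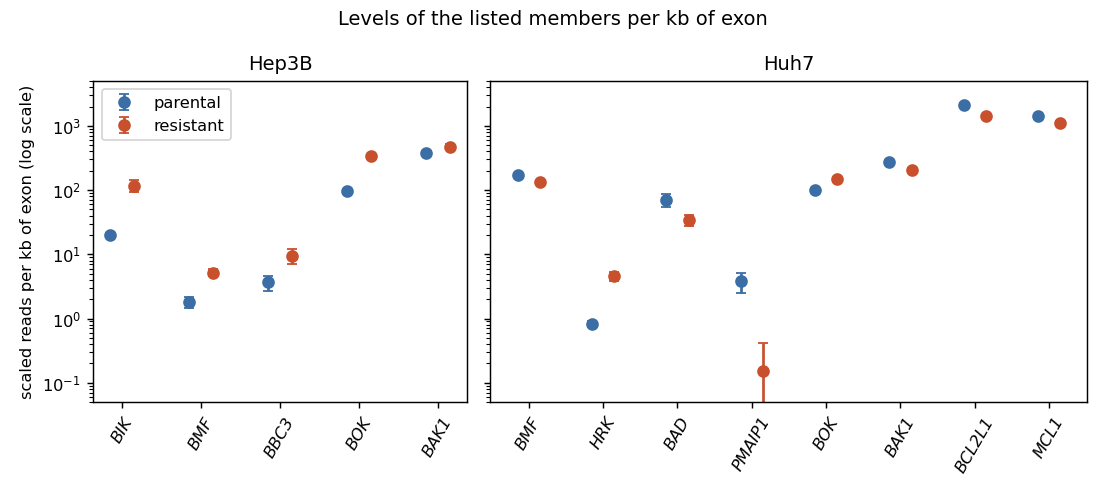
Scaled reads per kb of exon on a log axis, mean ± SD of 3 libraries, for the members listed in each line, with parental in blue and resistant in red. In Huh7 BCL2L1 and MCL1 lie above all other members in both groups, and the lower error bar of resistant PMAIP1 runs off the axis.

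The rest of the family was followed in a list of 13 further genes. Hep3B lists 3 of them: BNIP3L rose from 223 ± 5.44 to 574 ± 48.3 scaled reads (1.36 ± 0.09, limma adjusted p = 1.58e-10) and BNIP3 from 505 ± 46.1 to 625 ± 7.96 (0.31 ± 0.08, 0.00325). Both encode BH3-like proteins known as receptors for the removal of mitochondria. The effector BAX is represented by an entry with 17 parental and 15 resistant reads, too few to show a change (-0.27 ± 0.75, limma adjusted p = 0.792). Huh7 lists 6, with 4 higher and 2 lower. There BAX fell from 1315 ± 162 to 889 ± 11 (-0.56 ± 0.08) and BCL2L12 from 1043 ± 120 to 634 ± 45.7 (-0.71 ± 0.08). BNIP3 rose from 853 ± 110 to 1594 ± 150 (0.90 ± 0.09), BCL2L14 from 68.3 ± 15.8 to 140 ± 7.33 (1.05 ± 0.17), BCL2L13 from 1740 ± 29 to 2140 ± 76.3 (0.30 ± 0.05) and BID, which links death receptors to BAX and BAK, from 1426 ± 43.5 to 1595 ± 66.2 (0.16 ± 0.06). BID missed the threshold with parental replicate 2 left out (limma adjusted p = 0.0723), and also with either of resistant replicates 2 (0.0576) and 3 (0.0622) left out.

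Downstream of the mitochondria, none of the 4 listed genes of the apoptosome and caspases was called by limma in Hep3B (median change 0.04), and 0 of 4 had an unadjusted p under 0.05 or a call by edgeR, DESeq2 or the authors' deposited table. In Huh7 2 of 6 were higher and 4 lower, with AIFM1, a mitochondrial flavoprotein, at 2578 ± 143 and 1347 ± 45.5 (-0.94 ± 0.06), and CASP6, an executioner caspase, at 0.47 ± 0.08. Of the inhibitor of apoptosis genes, both listed in Hep3B fell, BIRC3 from 114 ± 12.8 to 67.2 ± 11.2 (-0.76 ± 0.17) and BIRC6 from 2552 ± 179 to 1680 ± 176 (-0.61 ± 0.07). In Huh7 1 of 3 rose, BIRC6 (0.22 ± 0.06), and 2 fell, BIRC5 (survivin) by 0.26 ± 0.06. That fall of BIRC5 was not called relative to the median of all listed genes (-0.07, limma adjusted p = 0.255).

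The death receptor arm, which reaches caspases from the cell surface, had 2 genes higher, 2 lower and 2 not called of 6 in Hep3B. TRADD, an adaptor of TNF receptors, rose by 0.89 ± 0.12, the decoy receptor gene TNFRSF10D by 0.41 ± 0.07, and the adaptor FADD fell by 0.64 ± 0.07. In Huh7 5 of 7 were higher and 2 lower. The ligand TRAIL (TNFSF10) rose from 89.5 ± 21.6 to 253 ± 23.6 (1.52 ± 0.16), CASP10 by 0.77 ± 0.10 and the TRAIL receptor TNFRSF10A by 0.73 ± 0.13.

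Genes that act on the members themselves went both ways. Of the mitochondrial and cytosolic partners, 2 of 9 were higher and 1 lower in Hep3B, where the 14-3-3 gene SFN rose by 0.85 ± 0.27 and YWHAG fell by 0.28 ± 0.04, and 5 of 10 were higher and 5 lower in Huh7, where DYNLL2, the dynein light chain that holds BMF, fell by 0.42 ± 0.06, VDAC1 rose by 0.39 ± 0.05 and SFN by 0.34 ± 0.08. SFN in Hep3B missed the threshold with resistant replicate 2 left out (limma adjusted p = 0.0819) and under 3 other alternatives. Of genes that set MCL1 protein turnover, 1 of 4 fell in Hep3B, CDC20 by 0.19 ± 0.05, a call that quantile normalization (adjusted p = 0.125) and limma with neither the trend nor the robust option (0.0648) did not make. In Huh7 3 of 7 rose and 4 fell, with USP9X, which removes ubiquitin from MCL1, going from 4404 ± 153 to 2811 ± 128 (-0.65 ± 0.05), the ligase genes TRIM17 at -0.75 ± 0.16 and FBXO4 at 0.53 ± 0.12.

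The list of transcription factors known to act on BH3-only genes also held TRIB3, a pseudokinase gene. Of these genes, 3 of 7 were higher, 1 lower and 3 not called in Hep3B, TRIB3 among those not called. In Huh7 3 of 12 were higher and 9 lower, TRIB3 among the lower. In Hep3B EGR1 rose by 2.96 ± 0.08, JUN from 2239 ± 35.6 to 5503 ± 165 (1.30 ± 0.05) and E2F1 by 0.91 ± 0.07. In Huh7 JUN fell from 7668 ± 571 to 3583 ± 127 (-1.10 ± 0.06), FOXO4 fell from 407 ± 41.6 to 131 ± 6.47 (-1.63 ± 0.11) and FOXO3 rose by 0.66 ± 0.06. Of kinases that phosphorylate BAD or the BH3-only protein BIM, 2 of 6 were higher and 2 lower in Hep3B, with RPS6KA3 at -0.81 ± 0.08 and PIM3 at -0.40 ± 0.07. In Huh7 3 of 9 were higher and 6 lower, among them PIM1 (772 ± 41 to 359 ± 17.3, -1.10 ± 0.08), AKT2 (-0.77 ± 0.07) and RPS6KB1 (-0.68 ± 0.07).

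**Figure D5:**
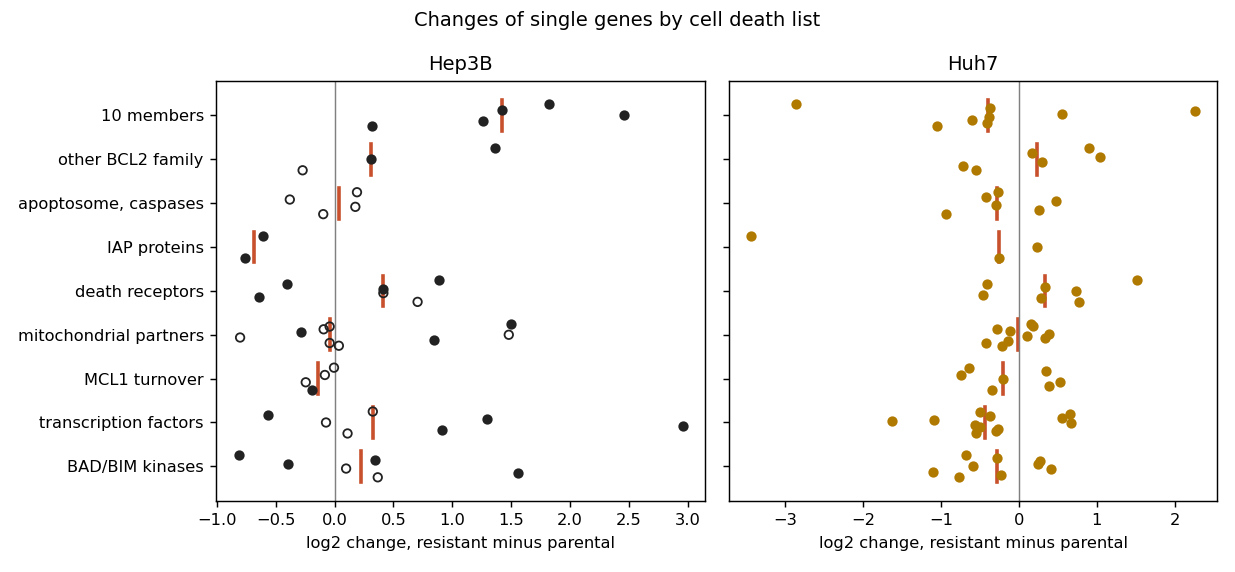
Log2 change of each listed gene, resistant minus parental, by cell death list, with filled points called by limma, open points not called and the red bar the median of the list. In Hep3B the bar of the members is the median of the 5 listed there (1.42). In Huh7 all medians lie between -0.5 and 0.5, that of the members with PMAIP1 included. Lists were chosen with earlier results of these data known, so their order is no test.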

How the data were processed

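Each line has its own deposited table. The submitters' processing notes name GRCh37 as the build. Which aligner, counter, strand setting and annotation the authors used is not stated in the sources used here. The deposited Hep3B signal values, 1 per RefSeq transcript, proved to be 2 times the square root of (reads + 0.375) times a factor per library. For Huh7 the deposited signal is per Ensembl gene and equals reads times such a factor. Undoing this gave whole reads for 100% of values, within 0.05. The authors' deposited log2 fold changes and FDR-adjusted p-values, per the file headers, served as an alternative.

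Each line was fitted by itself with limma 3.58.1 (trend and robust options, two-sided, R 4.3.3), on log2(scaled reads + 1). Entries needed 1 scaled read or more in 3 or more libraries. The fit was also run on simulated data with 200 changed genes per line, each with a mean of at least 20 scaled reads. That setting differs from the Huh7 table, where every entry tested was called, and from members with few reads. No result of it is used here. Alternatives were other pseudocounts, filters and scalings, limma with neither option, edgeR 4.0.16, DESeq2 1.42.0, the authors' values, the replicate number as a block, and each library left out. One Hep3B entry without a gene name (0.000119% of reads) was left out. The difference between lines used both standard errors, with Welch-Satterthwaite degrees of freedom. Genes named are all listed family genes and, per other list and line, up to 3 called genes with the largest change and a mean of at least 20 scaled reads. Some genes that this rule names are not reported here. The members and lists were chosen with earlier results of these data known. Exon lengths and overlaps are from GENCODE 29 (GRCh38), used without coordinates, and transcript numbers from RefSeq.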

Additional observations from a re-analysis of the deposited data

Results flagged for a closer look

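The change from parental to resistant cells differed between the lines, by a test of the difference itself, for 11 of the named genes listed for both. All had passed the authors' own test in Huh7, so these calls too are made within a selection. For BAK1 the Huh7 change minus the Hep3B change was -0.74, for BMF -1.80 and for BOK -1.26. It was -3.46 for EGR1, -2.39 for JUN and -1.18 for E2F1, all 3 of which rose in Hep3B and fell in Huh7. It was 0.83 for BIRC6 and 0.47 for YWHAG, which fell in Hep3B and rose in Huh7. It was 0.59 for BNIP3, which rose in both, 0.53 for RPS6KA3, which fell in both, and -0.46 for DYNLL2, which was not called in Hep3B and fell in Huh7. The difference did not pass for BAX, listed with few reads in Hep3B (-0.29, adjusted p = 0.755 from the limma standard errors of both lines). Nor did it pass for SFN (-0.51, 0.122), CDC20, FADD, PIM3, TNFRSF10A and TNFRSF10D. For VDAC1 it was -1.09 ± 0.63 and did not pass, on only 9 parental and 29 resistant reads in Hep3B.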

How the results depend on the processing

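Of 233 values of single members under alternatives, 228 kept their direction and their side of the threshold, and 5 kept their direction but lost the call. All 5 were of BBC3 in Hep3B, with 0.99 under quantile normalization and 1.33 under DESeq2. The other 3 were 1.05 without parental replicate 1, 1.20 without resistant replicate 1 and 1.11 without resistant replicate 2. The 233 include 17 of PMAIP1, for which no test is given here. Members listed for Huh7 had all passed the authors' own test, so a call kept there adds little. The 48 values of differences between lines all kept sign and call, under other pseudocounts, median centring, the replicate block and single libraries left out only. Of 773 values of other named genes, 10 lost the call and 3 changed sign, all 3 of BAX in Hep3B, which was not called in any (-1.03 to 0.30 with a library left out). Counts of calls over all entries stayed within 1.5 times, but in Hep3B lower calls outnumbered higher ones with median centring, quantile normalization (2037 higher and 2186 lower), edgeR with TMM (2147 and 2184), DESeq2 (1856 and 1990) and the authors' deposited table (1815 and 1921). In Huh7 higher calls outnumbered lower ones with median centring and DESeq2 (3614 and 3497). Same-numbered libraries deviated together weakly (correlations of 0.06, 0.16 and 0.09 in Hep3B, 0.01, 0.02 and 0.07 in Huh7), so the numbers were not taken as pairs. In Hep3B 6 of 6 libraries, and in Huh7 4 of 6, correlated best with the library of their own number, a hint from the data and not the design. The replicate block gave 2703 higher and 2178 lower entries in Hep3B, against 2405 and 1912 without it, and 3614 and 3917 in Huh7, and changed no call of a member. The fitted change of PMAIP1 ran from -4.52 in the authors' deposited table to -1.33 with a pseudocount of 5, and it gave no value at a mean of at least 10 scaled reads. Depth limits BMF and BBC3 in Hep3B and HRK and PMAIP1 in Huh7, with 1 to 90 reads per group.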
